A study of Mus musculus with 8 samples.

Results

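The genes described here encode the histone deacetylases other than Hdac1 and Hdac2, the sirtuins, and subunits of the CoREST, SIN3, NuRD and NCoR corepressor complexes. They were chosen by symbol alone, as 41 named genes of the 45706 in the count table, and all 41 were found and passed the filter on low counts. The hearts came from 8-week-old male mice of 3 genotypes. The knockout hearts (cKO, 4 mice) were Elmsan1 fl/fl;aMHC-Cre+/-, so that Cre recombinase made from the cardiomyocyte promoter aMHC acts on loxP-flanked Elmsan1 alleles. The floxed controls (2 mice) were Elmsan1 fl/fl without Cre, and the Cre controls (2 mice) were aMHC-Cre+/- without floxed alleles. RNA was taken from whole heart, where endothelial cells, fibroblasts and other cells keep an intact Elmsan1, and in such bulk samples fewer cells of a type and less RNA per cell cannot be told apart.

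Elmsan1 is a scaffold of MiDAC, a complex in which Hdac1 or Hdac2 removes acetyl groups from histones. The same Hdac1 and Hdac2 also work in CoREST, SIN3 and NuRD, while NCoR is built around Hdac3, so the genes described here code for the complexes that share or parallel the enzymes of MiDAC. Class IIa deacetylases have little enzyme activity of their own and in heart muscle act mainly by binding and restraining MEF2 transcription factors. Sirtuins are a separate family that uses NAD as a cosubstrate and includes nuclear, cytoplasmic and mitochondrial enzymes.

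Of the 41 genes 15 were lower and 9 higher in cKO hearts than in the mean of the control groups, against 26.5% of all 15289 tested genes called lower and 25.6% called higher. The shares among the 41 were 36.6% and 22.0%. With 58.5% of them called in either direction and 52.1% of all tested genes, the set as a whole was near the background of a comparison in which a majority of genes moved. Calls come from the quasi-likelihood test of edgeR, with p adjusted by Benjamini-Hochberg over all tested genes and a threshold of 0.05. The median log2 fold change of the 41 genes was -0.15, beside 0.04 for all tested genes, and single genes ran from -1.02 (Ncor1) to 3.08 (Sap25). Levels in the 4 cKO hearts did not overlap those in the 4 control hearts for 15 genes on the lower side and 11 on the higher side, where the share of all tested genes was 25.9% and 23.4%. Each complex holds few genes. All CoREST scaffolds, both shared histone-binding subunits and 3 of 4 NCoR subunits were lower, whereas SIN3, NuRD and the class IIa enzymes each held rises beside falls. Of these lower calls, those of Rcor3, Rbbp4 and Tbl1xr1 were lost under the correction for length and GC content described below.

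**Figure D1:**
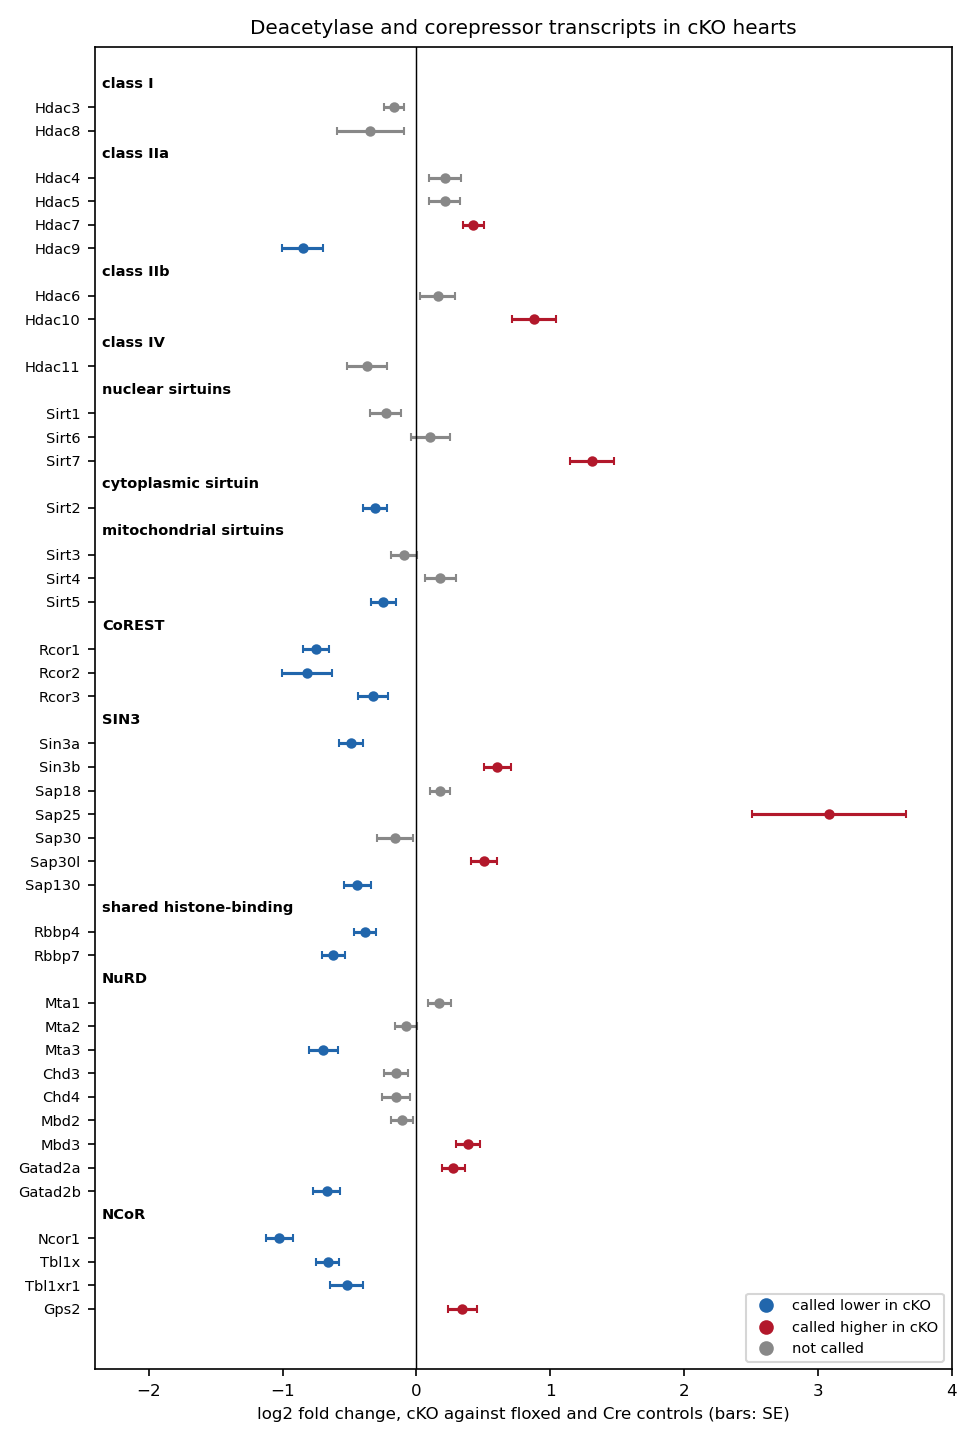
Log2 fold change of each of the 41 genes in cKO hearts (n = 4) against the mean of floxed (n = 2) and Cre (n = 2) hearts, grouped by role, with bars showing the SE. The 3 CoREST scaffolds lie left of 0, Ncor1 lies farthest left at -1.02, and Sap25 and Sirt7 lie farthest right at 3.08 and 1.31.

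Totals ran from 17509564 to 25833259 estimated counts per heart. Elmsan1 itself was at 12.0 to 15.5 CPM (counts scaled to library size) in cKO and at 25.3 to 28.6 CPM in controls, a fall of 1.85-fold (edgeR adjusted p = 8.94e-05). Among markers of other cells the summed level of 8 endothelial genes was 1691 to 2334 CPM in cKO and 1084 to 1378 CPM in controls, with 6 of the 8 called higher and 1 lower. The 8 macrophage markers summed to 229.7 to 292.8 CPM in cKO and 147.2 to 177.3 CPM in controls (6 called higher), and the 8 fibroblast markers to 942.5 to 1229 and 693.6 to 924.2 CPM (3 called higher). For 8 cardiomyocyte markers the sums overlapped, at 43970 to 52510 and 50540 to 54150 CPM, with 3 called lower and 2 higher. Sums of 8 smooth muscle and pericyte markers (574.4 to 982.4 and 654.5 to 744.8 CPM) and of 8 lymphocyte markers (3.36 to 4.80 and 1.63 to 12.45 CPM) also overlapped, with none and 1 called, the latter higher. No marker gene was at 0 in every library, and the part of these cell markers in the results below was not tested.

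Fold changes in these hearts also followed transcript length and base composition, over all genes and within the set. Spearman's rho of log2 fold change with the length of the longest annotated transcript was -0.371 over the 41 genes and -0.396 over 13744 tested coding genes, and with GC content 0.562 and 0.336. These are descriptions over genes, which are measured in the same libraries and are not independent. Genes called lower had a median length of 4663 bp and a median GC content of 47.4%, and genes called higher 2895 bp and 56.6%. A second fit therefore carried an offset, a smooth correction per library for length and GC content. For the 41 genes its values are given beside the main ones wherever it ended a call or turned a direction against the mean of the controls. With the offset 14 of the 41 were called lower and 8 higher, against 24.3% and 20.8% of all genes tested with it. Of these, 10 and 6 had the same call without it.

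**Figure D2:**
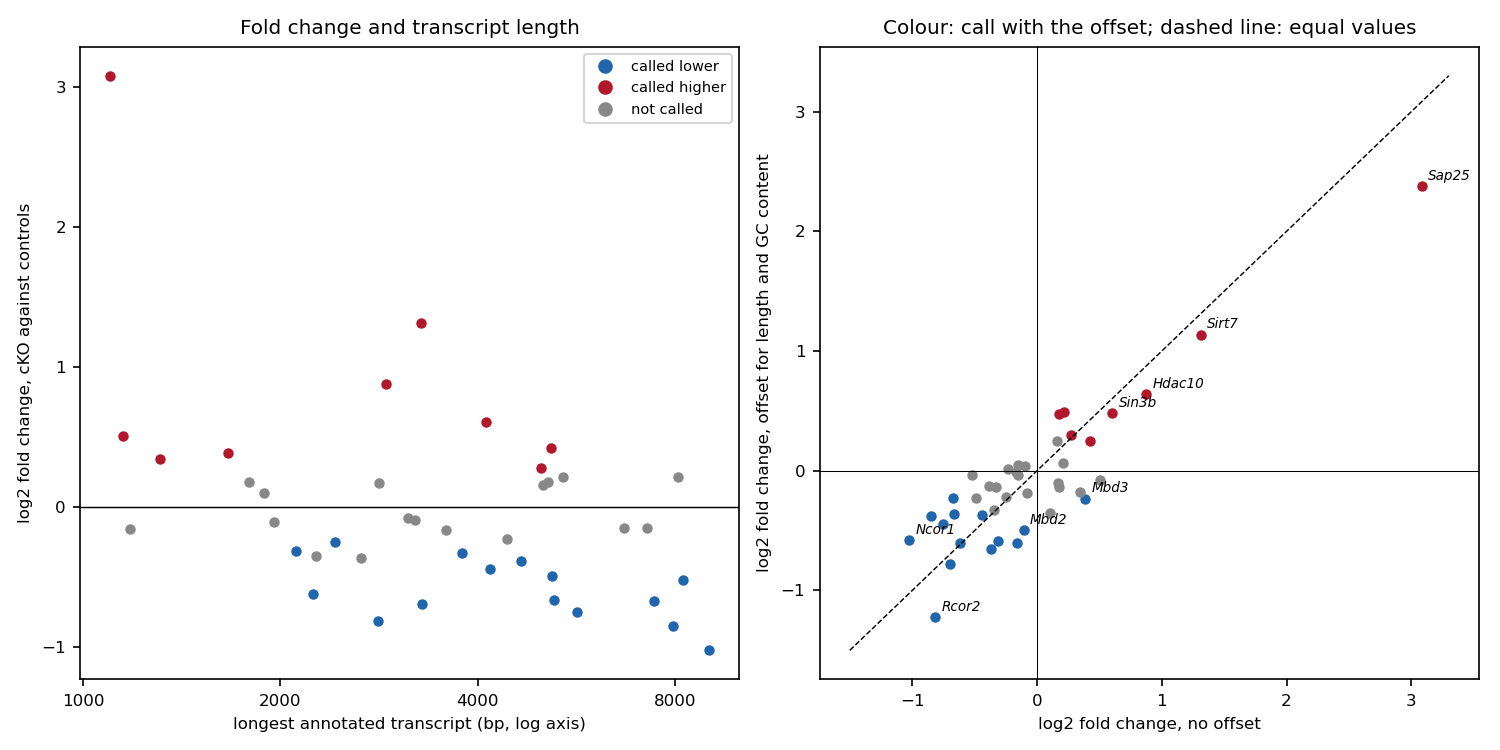
Left, log2 fold change of the 41 genes in cKO against controls by length of the longest annotated transcript (log axis), coloured by call. Right, the same log2 fold changes (horizontal) against those with the offset for length and GC content (vertical), coloured by the call with the offset. Sirt7, Hdac10 and Sin3b stay on the upper right, and Mbd3 moves from 0.39 to -0.23.

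Of 4 NCoR subunits 3 were lower and 1 higher, and Ncor1 had the largest fall of the 41 genes without the offset. With the offset the largest fall was that of Rcor2 (-1.22, beside -0.58 for Ncor1). NCoR joins nuclear receptors to Hdac3, and Ncor1 is its large scaffold. Ncor1 (ENSMUSG00000018501, GRCm38 chromosome 11, 62316426 to 62458541, minus strand) was at 63.1, 59.6, 57.9 and 49.3 CPM in cKO replicates 1 to 4, at 127.6 and 115.6 CPM in floxed and at 102.8 and 121.6 CPM in Cre. Every cKO heart was thus well below every control heart. The cKO mean was 57.5 ± 5.88 CPM and the control mean 116.9 ± 10.6 CPM (± SD over 4 hearts), a 2.03-fold fall (log2 -1.02, SE 0.10; edgeR adjusted p = 3.33e-05). With the offset Ncor1 stayed called. Ttc19, which overlaps Ncor1 on the other strand, was also lower (log2 -0.69, SE 0.11), and the strand setting of the counting is not given in the sources used here. Tbl1x, a WD-repeat subunit that helps exchange corepressors for coactivators, was at 37.7, 34.4, 36.0 and 31.0 CPM in cKO, 53.1 and 54.0 CPM in floxed, and 56.3 and 56.8 CPM in Cre. This fall of 1.58-fold (edgeR adjusted p = 0.000112) also left no overlap. Its close relative Tbl1xr1 was at 17.7 to 25.3 CPM in cKO and at 25.6 to 33.5 CPM in controls, 1.43-fold lower (log2 -0.52, SE 0.12; edgeR adjusted p = 0.00462). With the offset Tbl1xr1 was at -0.033 and not called (edgeR adjusted p = 0.832). Gps2, a small subunit that links the scaffold to the WD-repeat proteins, moved the other way, from 15.3 ± 0.58 to 19.4 ± 2.28 CPM (1.27-fold higher; edgeR adjusted p = 0.0192), and turned to -0.18 with the offset, not called (edgeR adjusted p = 0.269). The Gps2 call was also lost without floxed replicate 1 (edgeR adjusted p = 0.0553), floxed replicate 2 (0.073) or Cre replicate 1 (0.067). Hdac3, the deacetylase of this complex, was at 36.7 to 39.8 CPM in cKO and 40.6 to 45.5 CPM in controls, so the hearts did not overlap, but Hdac3 did not pass the test (log2 -0.17, SE 0.08; edgeR adjusted p = 0.084).

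All 3 CoREST scaffolds were called lower against the mean of the controls, Rcor1 and Rcor2 under all 19 alternatives and Rcor3 under 9 of them. They hold Hdac1 or Hdac2 together with the histone demethylase Kdm1a. Rcor1, the founding CoREST scaffold, was at 15.8, 14.5, 13.2 and 15.9 CPM in cKO, 24.8 and 24.7 CPM in floxed, and 23.4 and 27.1 CPM in Cre. The groups were far apart, and Rcor1 fell 1.68-fold (log2 -0.75, SE 0.10; edgeR adjusted p = 0.000134). Rcor2, the paralog known best from neural and pluripotent cells, was scarce at 6.15, 3.16, 4.11 and 4.95 CPM in cKO against 8.01 and 8.11 CPM in floxed and 8.54 and 7.67 CPM in Cre. Its fall was 1.76-fold (log2 -0.82, SE 0.19; edgeR adjusted p = 0.00372), and the value with the offset was -1.22. Rcor3, the most abundant of the 3 per length, was at 20.5 to 28.4 CPM in cKO and 27.6 to 30.5 CPM in controls, with cKO replicate 2 inside the control range. It fell 1.25-fold (log2 -0.32, SE 0.11; edgeR adjusted p = 0.0331) but was not called with the offset (-0.13; edgeR adjusted p = 0.371), nor without cKO replicate 3 (0.102) or 4 (0.0748), or without any 1 control heart (0.051 to 0.112). Against floxed or Cre hearts alone Rcor3 was not called (edgeR adjusted p = 0.084 and 0.0754).

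The histone-binding proteins Rbbp4 and Rbbp7, WD-repeat subunits that SIN3 and NuRD share, were both lower. Rbbp7 was at 90.0, 74.4, 81.7 and 75.9 CPM in cKO, 127.1 and 122.5 CPM in floxed, and 121.9 and 123.5 CPM in Cre. The control hearts lay close together and well above all cKO hearts, and the fall was 1.54-fold (log2 -0.62, SE 0.09; edgeR adjusted p = 0.000191), nearly the same with the offset (-0.60). Rbbp4 was at 50.9 to 60.3 CPM in cKO and 70.0 to 76.0 CPM in controls, 1.30-fold lower (log2 -0.38, SE 0.08; edgeR adjusted p = 0.00253). With the offset it was at -0.12 and not called (edgeR adjusted p = 0.21), and with library size alone it was not called either (0.067). Sync, which overlaps Rbbp4 on the other strand, was lower too (log2 -2.01, SE 0.17). Gm26722, which also overlaps Rbbp4 on that strand, was higher (log2 0.77, SE 0.14).

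The SIN3 scaffolds moved apart. Sin3a and Sin3b are paralogous platforms on which Hdac1, Hdac2 and the Sap proteins assemble. Sin3a was at 19.8, 18.8, 20.2 and 17.3 CPM in cKO, 26.2 and 24.7 CPM in floxed, and 26.8 and 29.3 CPM in Cre. That is a fall of 1.40-fold with no overlap (log2 -0.49, SE 0.09; edgeR adjusted p = 0.00106), which with the offset was -0.23 and just missed the threshold (edgeR adjusted p = 0.0501). Sin3b was at 50.1, 64.4, 58.1 and 66.1 CPM in cKO, 43.0 and 39.1 CPM in floxed, and 36.6 and 38.4 CPM in Cre. All cKO hearts were above all controls, and the rise was 1.52-fold (log2 0.61, SE 0.10; edgeR adjusted p = 0.000549), called with the offset as well (0.48). Sin3a therefore made up 20.3 ± 2.96% of the summed level of both scaffolds, as CPM per kb of the longest annotated transcript, in cKO and 35.0 ± 2.51% in controls (SD, n = 4 each), with no overlap between hearts.

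Another such pair was found in NuRD, where Gatad2a and Gatad2b are paralogs that bridge the methyl-binding and the remodeling subunits. Gatad2b was at 33.6, 26.7, 29.7 and 24.8 CPM in cKO, 45.7 and 44.9 CPM in floxed, and 45.4 and 46.6 CPM in Cre. It fell 1.59-fold (log2 -0.67, SE 0.10; edgeR adjusted p = 0.000306) with all cKO hearts below all controls, and by 0.22 on the log2 scale with the offset, still called. Gatad2a was at 32.5, 31.7, 29.5 and 32.8 CPM in cKO, 28.7 and 25.7 CPM in floxed, and 24.1 and 25.9 CPM in Cre. Its lowest cKO heart was only just above its highest control, and the rise was 1.21-fold (log2 0.28, SE 0.08; edgeR adjusted p = 0.0178). The Gatad2a call was lost without floxed replicate 2 (edgeR adjusted p = 0.097) or Cre replicate 1 (0.0677) and with no filter (0.0536), and held with the offset (0.30). Per kb Gatad2a was 62.2 ± 3.48% of the pair in cKO and 45.9 ± 1.80% in controls.

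The promoters of these 4 genes are shown because they belong to paralogs whose transcripts moved in opposite directions. They are RefSeq windows of GRCm38.p6 from 250 bases before to 50 after the annotated start, with capitals for matches on either strand to the GC box GGGCGG, the CCAAT box CCAAT, the ETS core CGGAAG, the E-box CACGTG, the CRE TGACGTCA or the palindromic NRF1 consensus. None of these motifs contains another. The windows are chr9:57071790-57072089 (plus strand) for Sin3a, chr8:72723020-72723319 (plus) for Sin3b, chr8:69996335-69996634 (minus) for Gatad2a and chr3:90292931-90293230 (plus) for Gatad2b.
Sin3a: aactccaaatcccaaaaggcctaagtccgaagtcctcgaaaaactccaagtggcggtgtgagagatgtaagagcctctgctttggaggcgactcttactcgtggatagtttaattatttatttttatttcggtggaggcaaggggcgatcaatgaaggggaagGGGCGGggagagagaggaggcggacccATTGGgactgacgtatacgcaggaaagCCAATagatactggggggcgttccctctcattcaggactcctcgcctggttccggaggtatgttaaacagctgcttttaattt
Sin3b: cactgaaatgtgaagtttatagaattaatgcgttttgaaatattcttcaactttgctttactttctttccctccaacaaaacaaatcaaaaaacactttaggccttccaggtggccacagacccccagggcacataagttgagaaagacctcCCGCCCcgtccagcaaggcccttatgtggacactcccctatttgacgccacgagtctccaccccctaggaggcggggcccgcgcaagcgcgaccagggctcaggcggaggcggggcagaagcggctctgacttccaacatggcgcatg
Gatad2a: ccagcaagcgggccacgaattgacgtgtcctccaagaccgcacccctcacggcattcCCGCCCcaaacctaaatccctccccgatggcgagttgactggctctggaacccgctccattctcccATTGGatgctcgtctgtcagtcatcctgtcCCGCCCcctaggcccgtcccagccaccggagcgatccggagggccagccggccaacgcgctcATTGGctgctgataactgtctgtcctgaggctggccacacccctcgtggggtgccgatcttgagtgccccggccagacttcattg
Gatad2b: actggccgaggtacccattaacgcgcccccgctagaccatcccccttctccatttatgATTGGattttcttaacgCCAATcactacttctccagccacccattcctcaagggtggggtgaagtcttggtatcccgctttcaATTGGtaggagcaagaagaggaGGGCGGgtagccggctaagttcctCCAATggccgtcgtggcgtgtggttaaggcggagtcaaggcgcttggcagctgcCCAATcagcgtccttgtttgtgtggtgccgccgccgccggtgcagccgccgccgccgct
Sin3a had 1 GC box and 2 CCAAT boxes, Sin3b 1 GC box and no CCAAT box, Gatad2a 2 of each, and Gatad2b 1 GC box and 5 CCAAT boxes. A window was available for 35 of the 41 genes, and 26 of the 35 (74.3%) held GGGCGG, compared with 36.0% of 27025 windows of all genes and 62.9% of 11206 windows of tested genes. CCAAT was in 48.6% of the windows of the set, in 37.9% of all windows and in 38.1% of those of tested genes, and CGGAAG in 25.7%, 17.2% and 29.9%. CACGTG was in 14.3% of the set, in 7.22% of all windows and in 9.99% of those of tested genes. The NRF1 consensus was in 1 window of the set (2.86%) and in 0.977% and 1.95% of the others, and TGACGTCA in none of the 35, in 1.87% of all windows and in 3.12% of those of tested genes. By direction, GGGCGG was in 12 of 13 windows of genes called lower and in 5 of 8 of genes called higher, and the median GC content of these 13 and 8 windows was 68.7% and 58.7%. Windows of Hdac3, Hdac10, Mbd2, Mta3, Chd3 and Sap130 were not used here. A match describes letters and not a bound site.

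**Figure D3:**
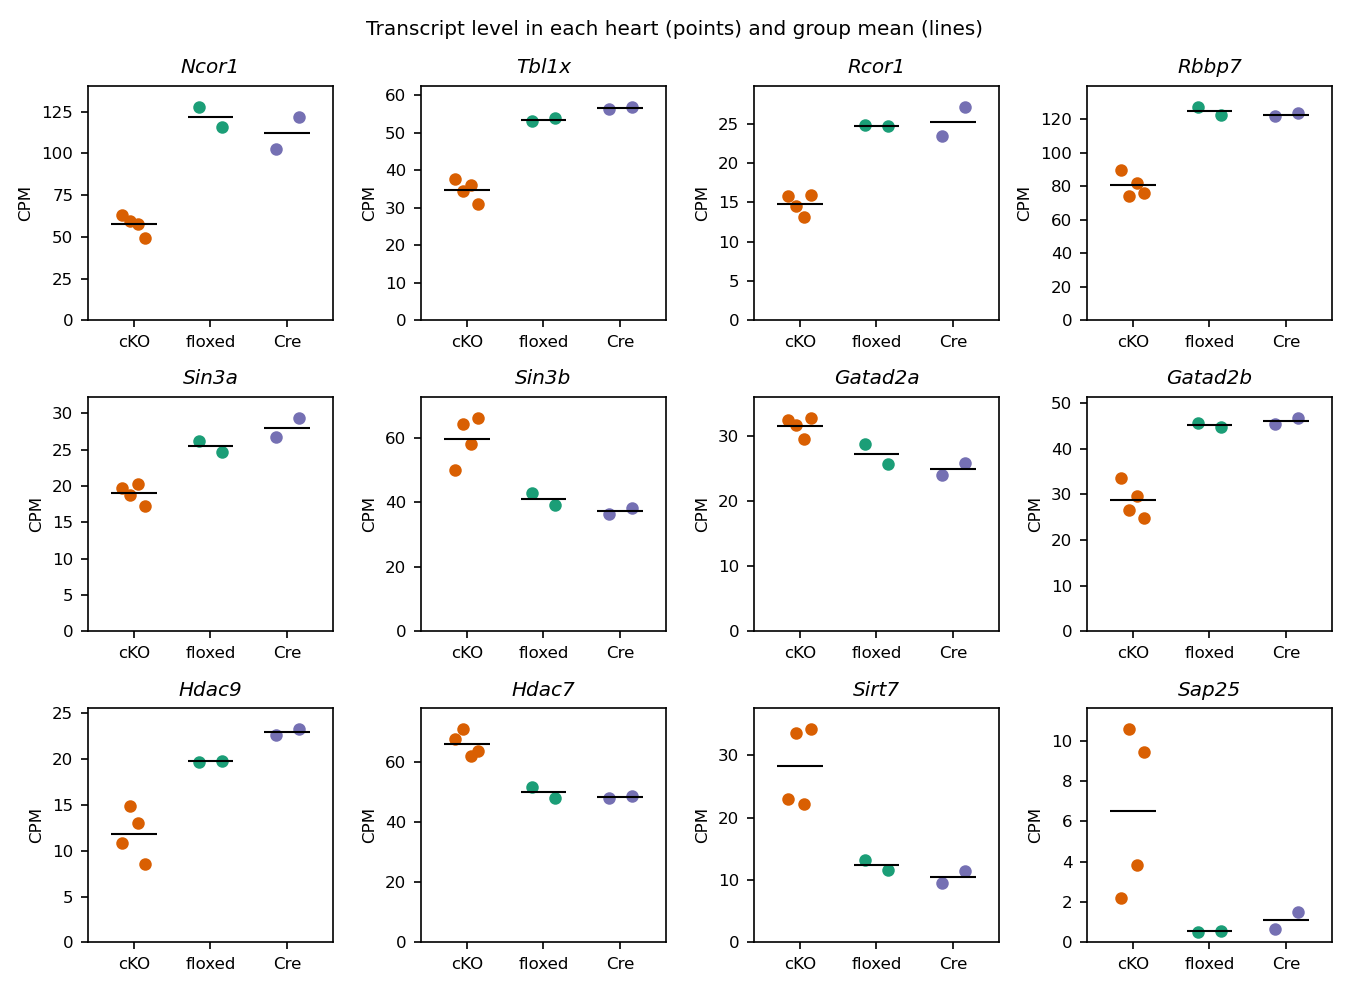
CPM of 12 of the genes in each heart (points) with the group mean (lines), for cKO (n = 4), floxed (n = 2) and Cre (n = 2); each vertical axis starts at 0. Ncor1 lies at 49.3 to 63.1 CPM in cKO and at 102.8 to 127.6 CPM in controls, and Sap25 and Sirt7 fall into a higher and a lower pair of cKO hearts.

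Among the smaller SIN3 subunits Sap25 rose most. Sap25, a SIN3-associated protein, had raw counts of 42, 214, 90 and 248 across the cKO hearts, of 12 and 12 across the floxed hearts, and of 18 and 30 across the Cre hearts. In CPM the cKO hearts were at 2.21, 10.6, 3.85 and 9.44, the floxed hearts at 0.51 and 0.59, and the Cre hearts at 0.68 and 1.5. All cKO hearts were above all controls, but cKO replicates 2 and 4 stood far above 1 and 3. The fitted rise was 8.47-fold (log2 3.08, SE 0.58; edgeR adjusted p = 0.00279), and 2.38 on the log2 scale with the offset, still called. The coefficient of variation among cKO hearts was 63.0%, the highest of the 41 genes. Gm20605, an annotated gene on the same strand that overlaps Sap25, had 271 to 1024 counts and was higher too (log2 1.26, SE 0.12), so that reads could have been divided between them. Sap30l, a paralog of Sap30 that binds SIN3, rose 1.42-fold from 23.5 ± 2.96 to 33.4 ± 1.62 CPM (edgeR adjusted p = 0.00142), but was at -0.078 and not called with the offset (edgeR adjusted p = 0.489). Sap30 itself was at 5.53 to 7.58 CPM in cKO and 5.81 to 8.45 CPM in controls and did not pass the test (log2 -0.16, SE 0.13; edgeR adjusted p = 0.342). With the offset it did, as lower (-0.60; edgeR adjusted p = 0.00287). Sap130, a large SIN3 subunit, fell 1.36-fold, from 18.8 ± 0.88 to 13.8 ± 1.23 CPM (log2 -0.44, SE 0.10; edgeR adjusted p = 0.00382). Sap18, a subunit also found on splicing complexes, was at 75.6 to 83.9 CPM in cKO and 70.2 to 71.7 CPM in controls, with no overlap but no call (log2 0.18, SE 0.08; edgeR adjusted p = 0.0718). With the offset Sap18 was called higher (0.48; edgeR adjusted p = 0.000306).

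The other NuRD subunits were mixed. Mta3, 1 of 3 metastasis-associated scaffolds, was at 10.5, 8.74, 8.82 and 8.15 CPM in cKO, 13.8 and 14.8 CPM in floxed, and 15.4 and 14.6 CPM in Cre. It fell 1.62-fold with no overlap (log2 -0.69, SE 0.11; edgeR adjusted p = 0.000411; -0.78 with the offset). Mta1 (49.5 ± 2.85 and 43.9 ± 3.13 CPM) and Mta2 (34.9 ± 2.39 and 36.9 ± 0.49 CPM) were not called (log2 0.17, SE 0.09, and -0.08, SE 0.08; edgeR adjusted p = 0.119 and 0.451). Mta1 turned to -0.10 with the offset, where neither Mta1 nor Mta2 was called. Per kb Mta3 made up 8.78 ± 1.05% of the 3 scaffolds in cKO and 14.0 ± 0.78% in controls. The share of Mta1 was 55.7 ± 2.18% in cKO and 48.9 ± 1.80% in controls. Each left no overlap, and these shares carry no offset. Mbd3, the NuRD subunit that has lost most of its binding to methylated DNA, rose 1.31-fold from 66.6 ± 2.40 to 86.9 ± 7.43 CPM (log2 0.39, SE 0.09; edgeR adjusted p = 0.00351). With the offset Mbd3 was called in the opposite direction (-0.23; edgeR adjusted p = 0.0264), so its direction depended on whether length and GC content were modelled. Mbd2, its methyl-binding relative, was not called (58.1 ± 4.23 and 62.6 ± 1.88 CPM; log2 -0.11, SE 0.08; edgeR adjusted p = 0.302) but was lower with the offset (-0.50; edgeR adjusted p = 0.000739). The share of Mbd2 in the pair per kb was 36.3 ± 2.56% in cKO and 44.4 ± 1.04% in controls, with no overlap. The remodeling ATPases Chd3 (log2 -0.15, SE 0.09; edgeR adjusted p = 0.188) and Chd4 (-0.15, SE 0.11; edgeR adjusted p = 0.256) were not called. With the offset neither of them was called, and Chd4 turned to 0.048. Chd4 held 84.7 ± 2.37% of their summed level per kb in cKO and 84.9 ± 1.51% in controls, with overlapping hearts.

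**Figure D4:**
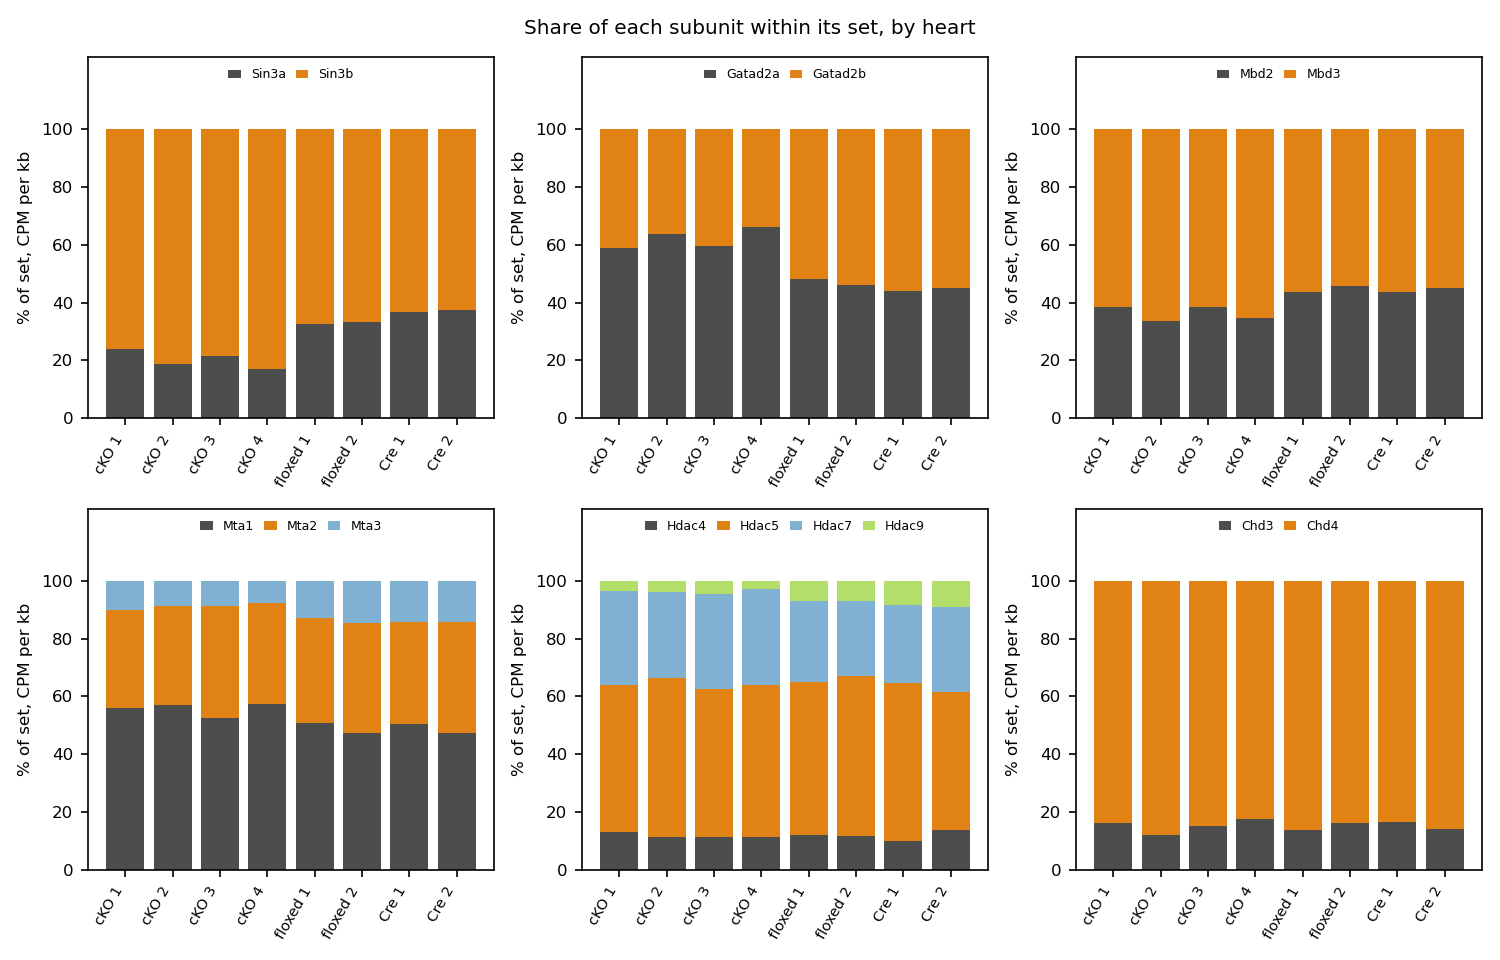
Share of each subunit in its set of interchangeable subunits, in each of the 8 hearts, as percent of the summed CPM per kb of longest transcript. Sin3a, Gatad2b and Mta3 take smaller shares in all 4 cKO hearts than in the 4 controls, while Chd3 and Chd4 overlap.

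Class IIa enzymes showed opposite calls in Hdac7 and Hdac9. Hdac9, which restrains MEF2 in heart and skeletal muscle, was at 10.9, 14.9, 13.0 and 8.53 CPM in cKO, 19.7 and 19.8 CPM in floxed, and 22.6 and 23.2 CPM in Cre. It fell 1.80-fold with no overlap (log2 -0.85, SE 0.15; edgeR adjusted p = 0.000859; -0.38 with the offset, still called). Hdac7, known for its role in blood vessel endothelium, was at 67.6, 70.9, 61.9 and 63.7 CPM in cKO, 51.7 and 48.2 CPM in floxed, and 48.1 and 48.6 CPM in Cre. It rose 1.34-fold (log2 0.43, SE 0.08; edgeR adjusted p = 0.00116; 0.25 with the offset, still called). The endothelial marker sum was 1691 to 2334 CPM in cKO against 1084 to 1378 CPM, of which Fabp4 alone averaged 913 and 354 CPM. Of the 8 markers 6 were called higher, Pecam1 was not called and Kdr was lower. The part of endothelial cells in the Hdac7 values was not tested. Hdac5, the most abundant of the class per length, averaged 113.3 ± 16.5 CPM over the cKO hearts and 98.0 ± 10.9 CPM over the controls, and Hdac4 38.0 ± 5.45 and 32.7 ± 3.68 CPM. Neither was called (log2 0.21, SE 0.12, for each; edgeR adjusted p = 0.144 and 0.158). With the offset Hdac4 was called higher (0.49; edgeR adjusted p = 0.004). Hdac9 took 3.72 ± 0.71% of the class per kb in cKO and 7.87 ± 1.08% in controls.

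The other zinc-dependent deacetylases held 1 call. Hdac10, a cytoplasmic class IIb enzyme that deacetylates polyamines, was at 11.5, 15.3, 13.0 and 13.9 CPM in cKO, 7.67 and 6.19 CPM in floxed, and 5.85 and 9.62 CPM in Cre. The rise of 1.84-fold left no overlap (log2 0.88, SE 0.17; edgeR adjusted p = 0.00116; 0.64 with the offset, still called). Hdac6, the tubulin deacetylase of the same class, was not called (16.1 ± 2.44 and 14.4 ± 1.61 CPM; log2 0.16, SE 0.13; edgeR adjusted p = 0.338). Hdac11, the only class IV enzyme, was at 12.9 to 20.8 CPM in cKO and 18.1 to 24.3 CPM in controls and did not pass the test (log2 -0.37, SE 0.15; edgeR adjusted p = 0.0612). It was called lower with the offset (-0.65; edgeR adjusted p = 0.00843). Leaving out cKO replicate 1 or Cre replicate 2 also gave a call (edgeR adjusted p = 0.029 and 0.0304). Hdac8, a class I enzyme that deacetylates cohesin, was near the bottom of the set at 1.68 to 2.95 CPM in cKO and 2.14 to 3.91 CPM in controls and did not pass the test (log2 -0.35, SE 0.25; edgeR adjusted p = 0.267).

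Sirt7 rose most among the sirtuins. This nuclear enzyme acts at ribosomal DNA and, in mouse, is needed for normal mitochondrial function in the heart. Sirt7 (ENSMUSG00000025138, GRCm38 chromosome 11, 120618372 to 120625240, minus strand) was at 23.0, 33.5, 22.1 and 34.1 CPM in cKO, 13.2 and 11.5 CPM in floxed, and 9.45 and 11.4 CPM in Cre. Every cKO heart was above every control, with replicates 2 and 4 again above 1 and 3. The rise was 2.48-fold (log2 1.31, SE 0.16; edgeR adjusted p = 0.000106), and 1.14 on the log2 scale with the offset. The annotated gene Mafg overlaps Sirt7 on the same strand, with 1047 to 1703 counts, and was higher by less (log2 0.37, SE 0.11). Sirt1 (12.1 ± 1.62 and 14.2 ± 1.23 CPM), the best-studied nuclear sirtuin, and Sirt6 (6.41 ± 0.97 and 5.96 ± 0.37 CPM), which acts at telomeres and in DNA repair, were not called (log2 -0.23, SE 0.12, and 0.10, SE 0.15; edgeR adjusted p = 0.125 and 0.57). Both turned sign with the offset (0.011 and -0.36), neither of them called.

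Sirt2, a mainly cytoplasmic tubulin deacetylase, was at 60.1, 53.3, 59.4 and 50.6 CPM in cKO, 69.6 and 70.1 CPM in floxed, and 64.6 and 72.9 CPM in Cre. It fell 1.24-fold with no overlap (log2 -0.31, SE 0.09; edgeR adjusted p = 0.0121; -0.59 with the offset), and was not called under upper-quartile scaling (0.0645) or library size alone (0.169). Sirt5, a mitochondrial sirtuin that removes succinyl and malonyl groups, was at 16.3 to 19.6 CPM in cKO and 18.9 to 21.9 CPM in controls. It sat at the threshold (log2 -0.25, SE 0.10; edgeR adjusted p = 0.0493). With the offset Sirt5 was at -0.22 and not called (edgeR adjusted p = 0.0673). Its call was lost under 15 of 19 alternatives, among them leaving out cKO replicate 2, 3 or 4, either floxed heart or Cre replicate 1 (edgeR adjusted p = 0.0931 to 0.135). Sirt3, the main deacetylase of the mitochondrial matrix (31.5 ± 3.15 and 33.6 ± 1.61 CPM), and Sirt4 (9.74 ± 0.62 and 8.62 ± 0.83 CPM), a matrix enzyme of amino acid metabolism, were not called (log2 -0.09, SE 0.09, and 0.18, SE 0.12; edgeR adjusted p = 0.43 and 0.218). Ric8a and Psmd13, which overlap Sirt3 on the other strand, were both higher (log2 0.42, SE 0.10, and 0.39, SE 0.09). The signs of Sirt3 and Sirt4 turned with the offset (0.043 and -0.14), and that of Sirt3 also under upper-quartile scaling and library size alone.

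Per length, the most abundant transcripts of the set in control hearts were Rbbp7 at 55.1 ± 1.04 CPM per kb, Mbd3 at 40.1 ± 1.45, Sirt2 at 32.7 ± 1.64, Mbd2 at 32.0 ± 0.96 and Chd4 at 26.6 ± 1.14 (SD, n = 4). Sirt2 and Mbd2, next to each other in this order, did not differ beyond their spread. The scarcest were Hdac9 at 2.69 ± 0.23, Hdac10 at 2.53 ± 0.59, Hdac8 at 1.33 ± 0.32 and Sap25 at 0.75 ± 0.42 CPM per kb. In cKO hearts Mbd3 was at 52.3 ± 4.47 and Rbbp7 at 35.9 ± 3.14 CPM per kb, so that Mbd3 stood above Rbbp7 there. These levels carry no offset. With the offset Mbd3 was lower in cKO (log2 -0.23), as was Rbbp7 (-0.60), so the rise of Mbd3 was not seen there. The order of Mbd3 and Rbbp7 in cKO with the offset was not computed. Most of the 41 genes varied more within cKO than within controls. The median coefficient of variation of CPM was 10.2% over 4 cKO hearts and 6.64% over 4 control hearts. It was larger in cKO for 32 of the 41 genes. These genes share the same libraries, and the share over all tested genes was not computed, so nothing particular to the set is shown. Replicates 2 and 4, in which Sap25, Sirt7 and Sin3b were highest, also had the highest summed level of 5 blood genes, at 1227 and 1348 CPM. That sum was 509.7 and 678.5 CPM in cKO replicates 1 and 3 and 500 to 775.8 CPM in controls, and none of the 5 was called. Its part in the spread of these genes was not tested.

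Each control group was also compared with cKO alone. These comparisons share the cKO hearts, so their values are given side by side. Against floxed hearts 14 of the 41 genes were lower and 8 higher (23.1% and 19.8% of all tested genes, 42.9% in either direction). Against Cre hearts 13 were lower and 8 higher (22.8% and 19.6%, and 42.4% in either direction). Both comparisons called 13 genes lower and 7 higher. Ncor1 was at log2 -1.08 (SE 0.12) against floxed and -0.97 (SE 0.12) against Cre, Sirt7 at 1.19 (SE 0.21) and 1.44 (SE 0.21), and Hdac9 at -0.74 (SE 0.18) and -0.96 (SE 0.18). With the offset 14 of the 22 genes called against floxed kept their call, 8 had none, and 5 others gained one. The 8 were Hdac9 (-0.29; edgeR adjusted p = 0.193), Sin3a, Sap30l, Rbbp4, Mbd3, Gatad2b, Tbl1xr1 and Gps2. Against Cre 12 of 21 kept their call with the offset, 8 had none, Mbd3 was called lower in place of higher, and 4 others gained a call. These 8 were Hdac7, Hdac10 and Sap25 (edgeR adjusted p = 0.085, 0.0679 and 0.0632), Sin3a, Sap30l, Rbbp4, Gatad2b and Tbl1xr1. Sirt5 and Gps2 were called against floxed only and Gatad2a against Cre only. The difference between these comparisons is the comparison of Cre with floxed hearts, in which none of the 41 genes was called by edgeR, DESeq2 or limma voom. At an unadjusted edgeR p under 0.05 there was 1, Sap30 (log2 -0.44, SE 0.19), where 3.44% of all tested genes passed. All genes called in that comparison were 0.0981% of those tested. The number of the 41 called against floxed, 22 in all, fell when either floxed heart was left out. The lone floxed heart was then assumed to vary like the other groups. The share of all tested genes called there was not computed, so a drop particular to the set is not shown.

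Partners of these complexes and pathways that are no members of the set moved both ways, 20 lower and 9 higher of 55 tested out of 58 listed, where 26.5% of all tested genes were lower and 25.6% higher. The counts for each complex below are small, and several lie near these shares. With the offset, applied to the partners after seeing the data, 17 were lower and 11 higher, and 15 and 5 of them had the same call without it. Hdac2 fell 1.52-fold, from 48.4 ± 2.13 to 31.8 ± 2.17 CPM, and Hdac1 did not pass the test (log2 0.10, SE 0.10; edgeR adjusted p = 0.414). Of 8 CoREST partners 3 fell and 1 rose. Zmym2 fell 1.41-fold, Zfp217 1.39-fold and Kdm1a, the demethylase, 1.21-fold, while Hmg20b, a DNA-binding subunit, rose 1.79-fold (log2 0.84, SE 0.10; edgeR adjusted p = 6.86e-05). Of 11 SIN3 partners 4 fell and 1 rose, with Arid4a 1.54-fold and Brms1l 1.49-fold lower and Brms1 1.59-fold higher. Of 6 NuRD partners 1 fell, Hdac2, and 2 rose, Cdk2ap1 1.27-fold and Chd5 2.39-fold, the last near 1 CPM. Of 4 NCoR partners 1 fell, Zbtb33 (2.01-fold), a methyl-binding repressor that recruits NCoR. Zmym2 (-0.054), Zfp217 (-0.30), Brms1 (0.13) and Cdk2ap1 (-0.20) were not called with the offset, and Cdk2ap1 turned sign.

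Of 12 class IIa partners 7 were lower and 1 higher, and with the offset 6 were lower, all among the 7, and none higher. All 3 MEF2 genes listed fell, Mef2a 1.76-fold (log2 -0.81, SE 0.09; edgeR adjusted p = 4.34e-05), Mef2c 1.55-fold and Mef2d 1.48-fold. With the offset they were at -0.48, -0.24 and -0.54, still called. Camk2d, the kinase that drives class IIa enzymes out of the nucleus, fell 1.86-fold, and Ywhae, a 14-3-3 protein that holds them in the cytoplasm, 1.47-fold (-0.57 with the offset for each, still called). Of 14 tested genes of NAD metabolism, the cosubstrate of sirtuins, 4 fell and 4 rose. With the offset 4 and 3 of these kept their call, so the list had no single direction. The genes named next were chosen by smallest p and are all among those that fell. Nampt, the rate-limiting enzyme of NAD salvage, fell 1.55-fold from 160.7 ± 9.94 to 103.9 ± 7.20 CPM (edgeR adjusted p = 0.000197), and Parp1, a major NAD consumer, 1.85-fold. Nnt, the mitochondrial transhydrogenase, was at 193.5, 210.1, 239.8 and 144.4 CPM in cKO, 677.0 and 628.4 CPM in floxed, and 585.2 and 783.7 CPM in Cre. It fell 3.39-fold (log2 -1.76, SE 0.16; edgeR adjusted p = 2.56e-05), with no overlap between the groups.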

How the data were processed

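RNA of 8 mouse hearts was sequenced from NEBNext Ultra libraries, per the labels' protocols. Estimated counts per gene were deposited by the authors in a single table, in which 71.95% to 76.34% of nonzero values per library were whole within 1e-06. STAR 2.5.1b, DESeq2 and the builds mm10 and GRCm38 appear in the submitters' processing notes; the counting program, annotation and strand setting were not given in the sources used here. Estimated counts were rounded. Symbols, positions and lengths came from GENCODE M21 (GRCm38), promoters from RefSeq.

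Genes were filtered with filterByExpr (15289 left) and scaled by TMM. All 8 libraries entered 1 robust edgeR 4.0.16 fit (R 4.3.3) of 3 group means, leaving 5 residual degrees of freedom. The main contrast set cKO against the equally weighted floxed and Cre means, and SE came from the test statistic. A fold change is 2 to the size of the log2 fold change. The procedure was tested on simulated data in which few genes changed, equally up and down, with no trend by length or GC content. How it behaves where a majority of genes moved, as here, was not tested. Each library is labelled as its own replicate, and p-values measure the spread between these libraries. The offset was a smooth function of log2 length and GC content per library (mgcv 1.9.3). DESeq2 1.42.0, limma voom 3.58.1, other scalings and filters, and each library left out were alternatives. The genes named are all 41 members, Elmsan1, Hdac1, Hdac2 and up to 3 called genes with the smallest p per partner list; Kdm1a, Mef2c and Mef2d were added after their values were seen. Members and lists were chosen with earlier results of these data known. One gene of the partner lists is not reported here.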

Additional observations from a re-analysis of the deposited data

Results flagged for a closer look

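Mbd2 in cKO replicate 2, at 51.8 CPM, stood below the other cKO hearts (59.4, 60.7 and 60.5 CPM) past Dixon's 95% critical value for 4 samples (gap over range 0.862). All 41 genes were examined, and chance marks about 1 in 20 groups.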

How the results depend on the processing

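Each of the 41 genes was refitted under 19 alternatives. Of the 24 called, 14 kept the same call under all 19, 9 lost it under at least 1, and 3 turned sign, all of the latter with the offset for length and GC content only and 2 of them among the 9 (Sap30l -0.078, Mbd3 -0.23, Gps2 -0.18). Of the uncalled genes 7 gained a call and 8 turned sign. With the offset these were Sirt1 (0.011), Sirt6 (-0.36), Sirt3 (0.043), Sirt4 (-0.14), Mta1 (-0.10) and Chd4 (0.048). Under upper-quartile scaling they were Sirt3 (0.020), Mta2 (0.035) and Mbd2 (0.0062), and under library size alone Sirt3 (0.037), Mta2 (0.051) and Mbd2 (0.024). These 2 scalings moved the median of all tested genes by 0.11 and 0.13 on the log2 scale, and calls over all genes from 26.5% lower and 25.6% higher to 21.9% and 31.9%, and to 19.5% and 31.1%. The number of the 41 called lower was 11 to 16 and higher 7 to 13 over the alternatives. Of all genes tested in each, 17.0% to 29.0% were lower and 15.1% to 31.9% higher, so the calls over all genes varied too. Against floxed hearts the count ranged from 9 to 22 when 1 library was left out. The share of all tested genes called against floxed hearts in these fits was not computed. A drop particular to the set is thus not shown. The cause of this range was not tested beyond fewer hearts in the floxed group.

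Libraries with the same replicate number in their titles did not deviate together between groups (r from -0.10 to 0.13). With 2 hearts in each control group the deviations mirror each other, so the values between floxed and Cre hearts are not independent. Floxed libraries bear other numbers in their names, which were not compared, so a pairing of the hearts is not excluded. With a replicate block, cKO replicates 3 and 4 carry no weight between groups. Under this block 12 genes of the set were lower and 9 higher. Of all tested genes 22.0% were lower and 19.7% higher with the block, beside 26.5% and 25.6% in the main fit, so calls over all genes fell too. Against floxed and Cre hearts 17 and 18 genes of the set were called with the block. The share of all tested genes called there is not given here. The block ended the calls of Sirt2 (adjusted p = 0.0695), Gatad2a (0.0595), Sirt5 (0.2) and Rcor3 (0.32), and Hdac4 gained one (0.0252). Counting depth limits Sap25 and Hdac8 most, with 12 to 30 counts in control and 38 to 78 in all libraries, respectively.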
